A study of Ursus arctos with 5 samples.

Results

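Titin, encoded by TTN, was represented by 17 of the 26614 transcripts assembled from the muscle RNA of 2 grizzly bears (Ursus arctos), and these 17 were taken by 1 rule, that the deposited gene name was TTN. Of all transcripts, 9093 carried a gene name, with 4873 different names. TTN had been selected on its hibernating and active levels in an earlier pass over these values, so its seasonal differences are given as a description with no test. The contrast between the bears did not enter that choice and was tested. The error of that test came in part from how far the seasonal differences of the bears disagreed. It is therefore not free of the values used in the choice.

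The muscle was gastrocnemius, a calf muscle, of 2 captive bears called Star and Tia. Each was sampled in October, when active and feeding, and in February, when hibernating and unfed, which gave 1 library per bear and state and 2 per state. The labels give both bears as adult, 10 years old, whereas the study speaks of a subadult and an adult. The labels join both bears in 1 single-end sample per state, and the columns of the deposited table separate them. The bears were anaesthetised for each biopsy, with a lower dose during hibernation, so season, food and dose cannot be told apart.

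Titin is the giant elastic protein of the sarcomere, the contractile unit of striated muscle. A single molecule is anchored in the Z-disc, runs through the I-band, where its folded and disordered segments act as a molecular spring, and continues along the myosin filament of the A-band to the M-band. Alternative splicing of I-band exons sets the length and stiffness of the spring. The isoform named N2-A is the form of skeletal muscle, N2-B is a shorter and stiffer form of the heart, and novex-3 is a truncated form that ends in the I-band.

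The assembled TTN transcripts were fragments of that very long mRNA. They ranged from 642 to 14670 bases, with a median of 2985, and summed to 78626 bases. Of the 17, 15 were contigs, the stretches of joined reads that the assembler keeps apart, and 2 were isotigs, the chains of contigs that stand for splice forms. By their best human match, 8 fragments fell to ENST00000460472, the N2-B transcript, and 4 to ENST00000342992, the N2-A transcript. Another 2 fell to ENST00000360870, the novex-3 transcript, and 1 each to ENST00000342175 (novex-2), ENST00000414766 and ENST00000448510. The human isoforms are identical over most of their length, so a best match does not say which isoform a fragment came from. The order of the fragments along the mRNA was not analysed here.

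The 4 libraries held about 44.7 to 54.2 megareads that aligned to the assembly, as worked out from the smallest steps in the RPKM values (read counts divided by transcript length and by library size). TTN took 0.709% of the aligned reads of Tia in the active state and 0.495% in hibernation. In Star these shares were 0.418% and 0.270%. The least-read fragment, isotig33588, rested on 39.0 reads in its shallowest library, and the median fragment on 2814. The 95% counting interval was therefore at most ±36.7% of a value, with a median of ±3.76% over the fragments. Such intervals cover counting error only.

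Summed over the 17 fragments and divided by their summed length, TTN stood at 90.1 RPKM in active and 63.0 RPKM in hibernating Tia, and at 53.2 and 34.3 RPKM in Star. Both bears were thus lower in hibernation, at 0.699 times the active level in Tia and 0.645 times in Star. On the log2(RPKM + 0.5) scale the differences were −0.51 and −0.62, a mean of −0.57 ± 0.0789 (SD, n = 2 bears). Libraries of the 2 states did not separate on this pooled level, since active Star lay below hibernating Tia. The pooled value concealed large differences among the fragments.

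Levels of single fragments spanned 258- to 464-fold within a library. The lowest was isotig33588 in all 4 libraries, at 1.29 to 2.71 RPKM. The highest was contig00340 in both libraries of Tia and in active Star, and contig00226 in hibernating Star. The median fragment lay between the 89.3 and the 94.9 percentile of the named transcripts of its library.

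**Figure D1:**
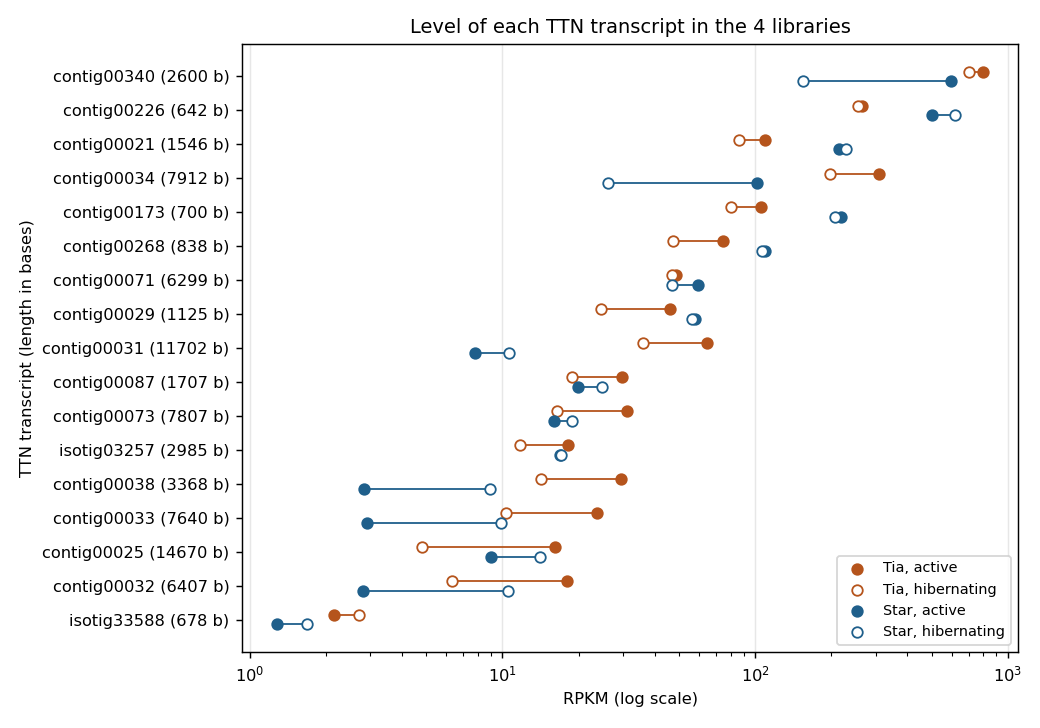
RPKM (log axis) of the 17 TTN fragments, ordered by their mean level and with their length in bases, in Tia (orange) and Star (blue), active (filled) and hibernating (open); a line joins the 2 states of a bear. Tia's open points lie left of the filled ones in 16 fragments, while Star's lie far to the left in contig00340 and contig00034 and to the right in contig00032, contig00033 and contig00038.

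The 2 fragments with the most reads, contig00340 and contig00034, carried the seasonal difference of Star. The first, 2600 bases long and matched to the N2-B transcript, was at 794 RPKM in active and 699.7 RPKM in hibernating Tia, and at 598 and 155 RPKM in Star. Contig00034, 7912 bases long with the same match, was at 309.9 and 197 RPKM in Tia and at 102 and 26.1 RPKM in Star. Hibernating Star was the lowest library for both. The active level was 3.86 and 3.89 times the hibernating level in Star, against 1.14 and 1.57 times in Tia.

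These 2 fragments together took 63.7% of the TTN reads of active Tia, 68.2% of hibernating Tia and 56.4% of active Star, but 22.6% of hibernating Star. Without them, the remaining 15 fragments stood at 37.7 and 23.1 RPKM in active and hibernating Tia, a log2 difference of −0.70. In Star the same 15 stood at 26.8 and 30.7 RPKM, a log2 difference of 0.19. Before scaling, the lower pooled level of Star in hibernation therefore rested on those 2 fragments, while that of Tia did not. Scaling the libraries to a common median moved the log2 differences of all transcripts in Star by a median of −0.19. The level of the 15 after scaling is not given here.

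**Figure D2:**
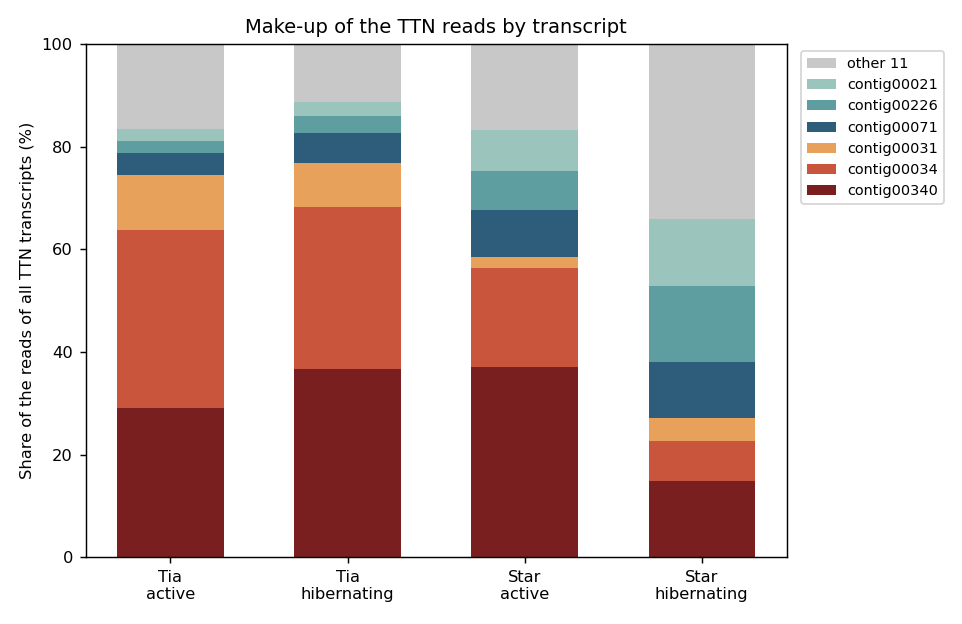
Share of the reads of all 17 TTN fragments (%) taken by the 6 fragments with the most reads and by the other 11, in each of the 4 libraries. Contig00340 and contig00034 fill 56.4% to 68.2% of 3 bars and 22.6% of the bar of hibernating Star.

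Fragments contig00032, contig00033 and contig00038, all matched to the N2-B transcript, differed between the states at least 2-fold in both bears, in opposite directions. Contig00032 (6407 bases) was at 18.0 RPKM in active and 6.34 RPKM in hibernating Tia, and at 2.82 and 10.5 RPKM in Star. Contig00033 (7640 bases) was at 23.7 and 10.3 RPKM in Tia and at 2.90 and 9.90 RPKM in Star. Contig00038 (3368 bases) was at 29.4 and 14.3 RPKM in Tia and at 2.85 and 8.91 RPKM in Star. In each of the 3, active Tia was the highest library and active Star the lowest, with the 2 hibernating libraries between them. The log2 differences were −1.43, −1.16 and −1.02 in Tia and 1.73, 1.61 and 1.49 in Star. Of all transcripts, 0.124% were as much lower in Tia and higher in Star, 33 of 26614.

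Another 3 fragments were matched to the N2-B transcript. Contig00031, the second longest at 11702 bases, was at 64.7 RPKM in active and 36.1 RPKM in hibernating Tia, and at 7.79 and 10.6 RPKM in Star, so that both libraries of Tia lay above both of Star. Contig00073 (7807 bases) was at 31.1 and 16.5 RPKM in Tia and at 16.0 and 18.9 RPKM in Star. Contig00087 (1707 bases) was at 29.8 and 18.8 RPKM in Tia and at 20.0 and 24.7 RPKM in Star. All 3 were lower in hibernation in Tia and higher in Star, with log2 differences of −0.90 to −0.65 and of 0.24 to 0.42.

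The 4 fragments matched to the N2-A transcript had higher mean levels in Star. Contig00226, the shortest at 642 bases, was at 264 RPKM in active and 255 RPKM in hibernating Tia, and at 502 and 616 RPKM in Star. Contig00021 (1546 bases) was at 109 and 86.6 RPKM in Tia and at 215 and 229 RPKM in Star. Contig00029 (1125 bases) was at 46.0 and 24.6 RPKM in Tia and at 57.7 and 56.1 RPKM in Star. In these 3 both libraries of Star lay above both of Tia. Contig00025, the longest fragment at 14670 bases, did not separate the bears, with 16.1 and 4.81 RPKM in Tia and 9.02 and 14.1 RPKM in Star. It had the largest difference between the states of the 17 in Tia, 3.34 times higher when active.

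Contig00173 (700 bases, matched to ENST00000448510) and contig00268 (838 bases, matched to ENST00000414766) also lay higher in both libraries of Star. The first was at 106 RPKM in active and 80.3 RPKM in hibernating Tia, and at 219 and 208 RPKM in Star. The second was at 74.6 and 47.2 RPKM in Tia and at 109 and 107 RPKM in Star. In Star, neither differed between the states by more than 0.08 on the log2 scale.

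The 3 fragments matched to the novex forms were read at moderate or low levels. Contig00071 (6299 bases, novex-3) was at 48.5 RPKM in active and 46.7 RPKM in hibernating Tia, and at 59.6 and 47.0 RPKM in Star. Isotig03257 (2985 bases, novex-2) was at 18.2 and 11.7 RPKM in Tia and at 16.9 and 17.1 RPKM in Star. Isotig33588 (678 bases, novex-3) was at 2.16 and 2.71 RPKM in Tia and at 1.29 and 1.69 RPKM in Star, and was the single fragment that was higher in hibernation in both bears. Its hibernating level was 1.25 times the active one in Tia, from 92.0 and 77.0 reads, and 1.31 times in Star, from 62.0 and 39.0 reads.

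In Tia, 16 of the 17 fragments were lower in hibernation, where 42.7% of all transcripts were. In Star 6 were, where 29.3% of all transcripts were. This count was 8 after scaling of the libraries to a common median, with contig00021 and isotig03257 changing sign. The 29.3% holds before scaling only. Scaling moved the median log2 difference of all transcripts in Star from 0.16 to −0.03, and the share after it is not given here. Lower in both bears were 6, contig00029, contig00034, contig00071, contig00173, contig00268 and contig00340 (17.9% of all transcripts). Higher in both was 1 (45.8%), and 10 were lower in Tia and higher in Star (24.8%). A shared direction with at least a 2-fold difference in each bear was found for 0 (0.688%). Since these differences took part in the choice of TTN, nothing is read from the counts.

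The median log2 difference over the fragments was −0.65 in Tia and 0.24 in Star, beside 0.10 and 0.16 over all transcripts. The SD among fragments was 0.505 in Tia, where that of all transcripts was 0.599, and 1.00 in Star, where that of all transcripts was 0.380. Scaling to a common median moved the log2 differences by a median of −0.10 in Tia and −0.19 in Star over all transcripts.

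**Figure D3:**
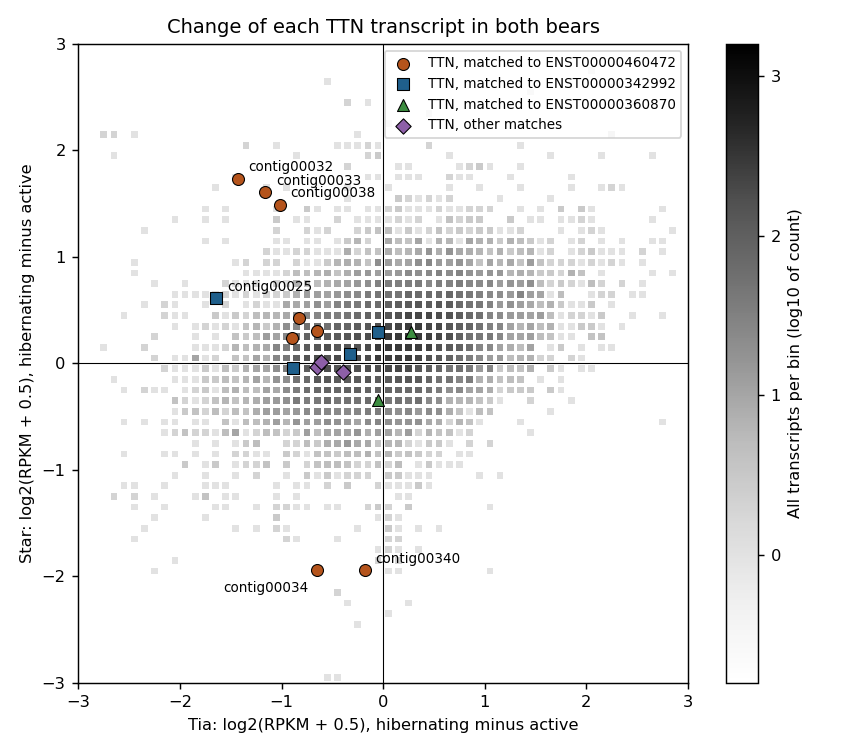
Difference between hibernation and activity on the log2(RPKM + 0.5) scale in Tia (x axis) and Star (y axis) for the 17 TTN fragments, coloured by human match, over all transcripts (grey, log10 of the number per bin; 43 that lie beyond 3 on an axis are not drawn). Contig00032, contig00033 and contig00038 lie at the upper left, contig00034 and contig00340 at the bottom.

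Length and abundance went with the seasonal difference in different ways in the bears, as a description over 17 fragments that share libraries and a gene. In Tia, longer fragments had the more negative difference (Pearson's r = −0.63, Spearman's rho = −0.66, against log2 length). Against abundance, as the log2 of the mean RPKM, the values were 0.36 and 0.53. In Star, the relation was with abundance (r = −0.64, rho = −0.70) and not with length (r = 0.12, rho = 0.28). The abundance was taken from the same libraries as the difference. By length, the 7 fragments under 2000 bases had a median log2 difference of −0.40 in Tia and 0.09 in Star. The 7 over 4000 bases had medians of −0.90 and 0.42, and in Star these ran from −1.94 to 1.73. Of the shorter 7, 5 were higher in Star than in Tia on average, against 2 of the longer 7.

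Between the bears, the sign of the difference in the mean of both states went with the human match for 2 matches. All 8 fragments matched to the N2-B transcript were lower in Star, with log2 differences of −2.35 to −0.09 and a median of −1.37. All 4 matched to the N2-A transcript were higher in Star, by 0.33 to 1.19, with a median of 0.92. In the limma fit given below, contig00087 and contig00025 differed by less than their SE (0.269 and 0.480). The N2-A-matched fragments were mostly short (642, 1125, 1546 and 14670 bases), and the part of length was not tested. The median over all transcripts was −0.00043. The N2-B-matched fragments took 84.1% and 83.4% of the TTN reads of active and hibernating Tia but 63.6% and 40.6% in Star. The N2-A-matched took 8.82% and 7.99% in Tia and 20.4% and 37.8% in Star.

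Both libraries of Star lay above both of Tia in 5 fragments (21.9% of all transcripts) and below in 6 (18.8%). The SD of the difference was 1.2 among the fragments and 0.424 among all transcripts. In the limma fit over all transcripts, with state as a term, none of the 17 differed between the bears at an adjusted p under 0.05, where 0.0338% of all transcripts did, 9 of 26614. At an unadjusted p under 0.05 there were 11, where 13.9% of all transcripts were. The lowest adjusted p were 0.0948 for contig00031, 5.48 times higher in Tia (log2 difference −2.35, SE 0.312), and 0.101 for contig00034, 3.96 times higher in Tia (−2.25, SE 0.320). Next were contig00173 (1.21, SE 0.217, adjusted p = 0.180) and contig00021 (1.19, SE 0.224, adjusted p = 0.195), both higher in Star. The SE ran from 0.204 to 0.644 over the fragments, highest for contig00032, whose seasonal differences had opposite signs in the bears.

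The calls changed with the scaling. With the libraries scaled to a common median, contig00031 and contig00034 passed (limma adjusted p = 0.0249 and 0.0416), and the calls over all transcripts went from 9 to 80. With 1 library left out the state term could not be kept, so the bear left with 1 library was compared with both states of the other, and bear and state cannot be told apart there. The fit of all 4 libraries without the state term called 0 of the 17 and 10 of all transcripts. Without hibernating Star it called contig00031, contig00033 and contig00038 (96 of all transcripts), and without active Star contig00031, contig00034 and contig00340 (59 of all). Without hibernating Tia it called contig00031 (68 of all), and without active Tia 0 of the 17 (65 of all). The 2 libraries of a bear come from 1 animal, so the test covers these 2 animals and no others.

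**Figure D4:**
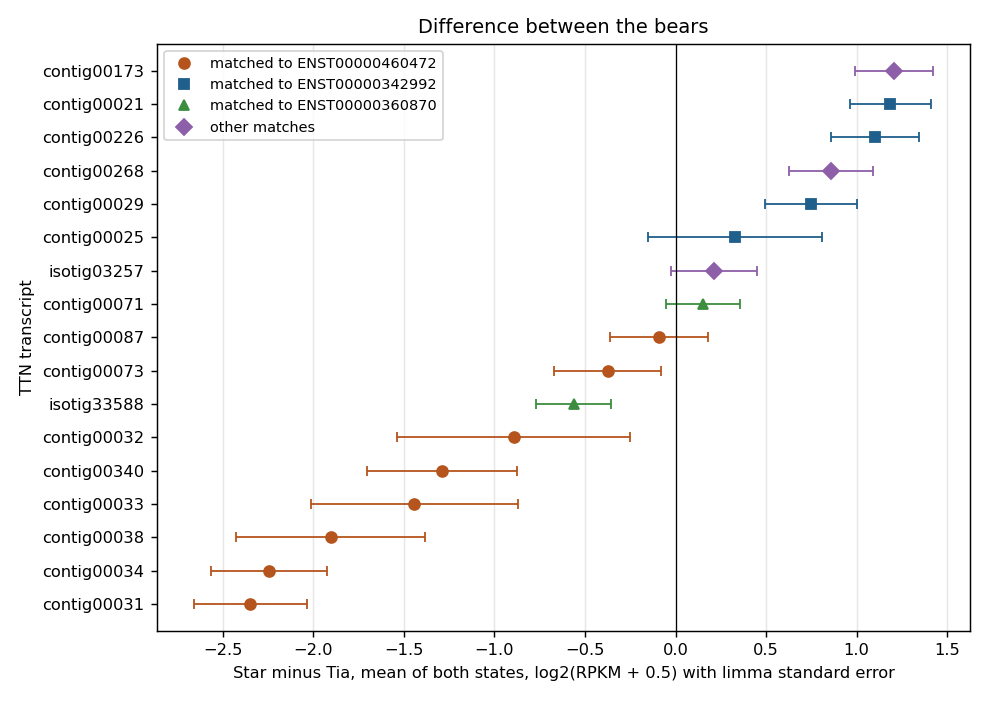
Star minus Tia, the mean of both states on the log2(RPKM + 0.5) scale, for each TTN fragment with the standard error of the limma fit (bars), coloured by human match. The 8 fragments matched to ENST00000460472 lie at or below −0.09 and the 4 matched to ENST00000342992 at or above 0.33.

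Muscle fibre markers differed between the bears as well. Slow-fibre genes (MYH7, MYL3, TPM3 and ATP2A2, 4 of 8 listed) summed to 5662 RPKM in active and 6344 RPKM in hibernating Tia, and to 3086 and 2668 RPKM in Star. Fast-fibre genes (MYH1, MYH2, ATP2A1 and MYBPC2, 4 of 8) summed to 8201 and 6243 RPKM in Tia and to 12256 and 12106 RPKM in Star. The slow sum was thus 1.83 and 2.38 times higher in Tia, and the fast sum was at 0.669 and 0.516 of that of Star. Within the fast sum, MYH1 was at 4823 and 2054 RPKM in active and hibernating Tia and at 7801 and 7625 RPKM in Star. MYH2 was at 2755 and 3841 RPKM in Tia and at 3493 and 3863 RPKM in Star, so it was nearly equal in the hibernating bears. The part of fibre type in the TTN differences was not tested, and in a bulk sample fewer fibres of a type and less RNA per fibre cannot be told apart.

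Of the general muscle fibre markers 1 of 7 was analysed, TNNC2, a troponin subunit of fast fibres. It was at 1860.2 RPKM in active and 1198 RPKM in hibernating Tia and at 2347 and 1949.6 RPKM in Star, 0.644 and 0.831 times the active level, beside 0.699 and 0.645 times for pooled TTN; its part in the TTN values was not tested. Fibroblast collagens (3 of 6 markers) summed to 146 to 312 RPKM, and COL1A1 alone reached 193 RPKM in active Tia against 6.79 to 11.0 RPKM in the other libraries. PECAM1 of endothelium (1 of 4) was at 7.53 to 13.0 RPKM and CD68 of macrophages (1 of 5 blood and immune markers) at 3.28 to 7.12 RPKM. CD68 was at 1.63 and 2.17 times its active level in hibernating Tia and Star. None of the 6 heart, 5 fat cell and 3 Schwann cell markers was analysed.

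The fragments fell into several profiles. Of the 136 pairs of TTN fragments, 14 had a Pearson correlation over 0.9 across the 4 libraries and 32 a correlation under −0.5, as a description over 4 points. Contig00021, contig00173 and contig00226 ran together (r = 0.99 and 0.98 with contig00021), as did contig00029 with contig00268 (0.98) and contig00034 with contig00340 (0.96).

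Other genes with many transcripts gave a background for this spread. Among the 54 genes with at least 10 transcripts, TTN had the largest ratio of the highest to the lowest mean level, 286-fold. Next came UBA1, a ubiquitin-activating enzyme, at 39.5-fold, and MYOT, the Z-disc protein myotilin, at 34.8-fold. The median of the other 53 was 2.44-fold. All transcripts were at 1.0 RPKM or more in each library, so a gene's ratio cannot exceed its highest mean level. That level was 562 RPKM for TTN, against 2.22 RPKM for a gene such as ASPSCR1 (1.92-fold). The lowest mean of TTN, 1.96 RPKM, was that of isotig33588, near this floor. The part of abundance in the ranking was not tested. The SD among a gene's transcripts was also highest for TTN in the difference between the bears, 1.2 against at most 0.541, and in the seasonal difference of Star, 1.00 against at most 0.590. In the seasonal difference of Tia TTN ranked seventh, at 0.505, below a maximum of 1.04. These ranks carry no test, and TTN entered with its seasonal values known.

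The other 53 genes had isotig rows only, 789 in all, and isotigs of a gene can share contigs, in which case their values share reads. Overlap among the TTN contigs was not tested. Among genes with at least 3 contig rows the highest mean level was 59.7 times the lowest in TTN (15 contigs), 2.13 times in PER1 (4 contigs) and 1.81 times in MYH1 (3 contigs). That leaves 2 genes to compare with.

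**Figure D5:**
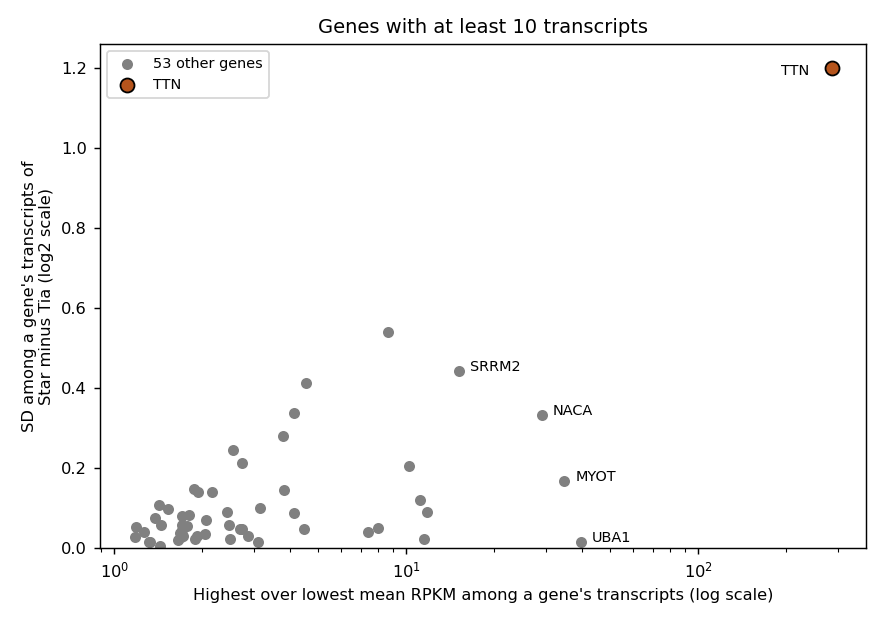
Ratio of the highest to the lowest mean RPKM among a gene's transcripts (x axis, log scale) and SD among them of the log2 difference between Star and Tia (y axis) for the 54 genes with at least 10 transcripts. TTN lies apart from the other 53, at 286-fold and 1.2.

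Genes with profiles most like the 3 most-read fragments were sought among 3926 named transcripts at a mean of at least 5 RPKM, by the distance between log2 values centred over the 4 libraries. Nearest to contig00340 was CA3, the carbonic anhydrase of slow fibres, at a distance of 0.316. A CA3 transcript stood at 769 RPKM in active and 566 RPKM in hibernating Tia, and at 475 and 110 RPKM in Star. The next were CMYA5, a large muscle scaffold protein that also had other transcripts with another profile (distance 0.568), MIB1, SEMA3C and QKI. Nearest to contig00034 were MIB1, a ubiquitin ligase of Notch signalling (0.654), and CA3 (0.699), followed by NMB, TFRC and GPAM.

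Nearest to contig00031 was LPL, the lipoprotein lipase, at a distance of 0.326. It stood at 120 and 63.4 RPKM in active and hibernating Tia and at 18.8 and 19.8 RPKM in Star. RAP2C, COL15A1 and NMB followed, and then MYOZ2 (0.803), the slow-fibre calsarcin of the Z-disc, at 286 and 162 RPKM in Tia and at 71.7 and 62.0 RPKM in Star. For these 3 fragments 11, 4 and 6 candidates lay nearer than the nearest other TTN fragment. The distances rest on 4 libraries.

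Of 37 genes listed as titin's partners, 19 were analysed, with 86 transcripts. By the transcript with the most reads, 5 genes were lower in hibernation in both bears (17.9% of all transcripts), 6 higher in both (45.8%) and 8 of opposite direction (36.2%). With the libraries scaled to a common median these counts were 7, 3 and 9, but the shares hold before scaling only. Scaling moved the median log2 differences of all transcripts from 0.10 in Tia and 0.16 in Star to −0.003 and −0.03. The median log2 differences of the 19 genes before scaling were 0.08 in Tia and 0.00 in Star. In the limma fit of state over all transcripts none of the 86 passed an adjusted p under 0.05, where 0% of all transcripts did. At an unadjusted p under 0.05 there were 11 of the 86, and 2237 of all transcripts (8.41%).

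At the Z-disc (4 of 10 listed genes) the median log2 differences were 0.24 in Tia and 0.15 in Star. In the I-band (4 of 11), CAPN3, the muscle calpain that binds titin, had log2 differences of −0.38 in Tia and −0.31 in Star. All 27 of its transcripts were lower in both bears (17.9% of all transcripts), with an SD among them of 0.044 and 0.058. Isotigs of a gene can share reads, so the 27 do not count as separate observations. At the A-band and M-band (10 of 14), MYOM1, the myomesin that links titin tails, had 0.35 and 0.06. MYBPC1, the slow form of myosin-binding protein C, had 0.20 and −0.04, and TRIM63, the ubiquitin ligase MuRF1, −0.71 and 0.17. MYBPC2, the fast form of myosin-binding protein C, had the single 2-fold difference in both bears on the log2(RPKM + 0.5) scale. It was at 421 and 181 RPKM in active and hibernating Tia and 626 and 309 RPKM in Star. Its log2 differences were −1.22 and −1.02 (limma adjusted p = 0.577). All 4 of its transcripts, which can likewise share reads, were lower in both bears. At an unadjusted limma p under 0.05 were 3 of the 19 genes, where 8.41% of all transcripts were. They were MYBPC2 and, named after their values were seen, NBR1, an autophagy receptor bound by the titin kinase, and LDB3, a Z-disc protein. NBR1 had log2 differences of 0.87 and 1.09 (limma adjusted p = 0.577) and LDB3 of 1.03 and 0.36 (limma adjusted p = 0.592). NBR1 was read at low levels, 1.53 and 3.21 RPKM in active and hibernating Tia and 1.12 and 2.96 RPKM in Star. Without the added 0.5, its levels too differed more than 2-fold in both bears. Of the 3 transcripts of LDB3, 2 were higher in both bears (45.8% of all transcripts). Of the 3 factors that splice titin RNA, 1 was analysed, PTBP1, named after its values were seen, which had 0.77 and 0.46. The other 18 partners, among them TCAP, NEB, ANKRD1, ANKRD2, MYOM2 and RBM20, were not analysed here.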

How the data were processed

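RNA was extracted with TRIzol and poly(A)-selected. The study states that its single-end libraries were built from full-length cDNA and that sample quality was assessed. Quality values of the libraries are not given in the sources used here. The part of RNA quality and of a fragment's position along the mRNA in the fragment levels was not tested. Per the study's methods, the authors assembled pyrosequencing and Illumina reads with Newbler and SOAPdenovo, named transcripts by BLAST against human Ensembl proteins, aligned single-end reads with SOAP2 and deposited RPKM values with the length of each transcript. The assignment of reads fitting more than 1 transcript and any nuclease normalization of the single-end cDNA are not given in the sources used here. All 26614 deposited transcripts were at 1.0 RPKM or more in each library, so a transcript below that in any library was not analysed. Pooled and paired-end libraries were not analysed.

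Values were used as log2(RPKM + 0.5), without a further filter. Linear models were fitted over all 26614 transcripts with limma 3.58.1 in R 4.3.3 (moderated, with a mean-variance trend, Benjamini-Hochberg adjustment, threshold 0.05), for the bears with state as a term and for state without bear. NOISeq, used by the study, was not installed. The code of the fits was tried on simulated data with independent noise and large planted steps. Pairing by animal was not simulated, so that check does not cover the spread of the real values. Tables were made in Python 3.11.15. Aligned reads per library were derived from the RPKM step of transcripts of up to 400 bases below 3 RPKM, where 96.0% to 98.2% of values were whole reads within 0.05. The state samples pair by animal: the Tia minus Star differences of hibernation and activity correlated at r = 0.358 over all transcripts.

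The members and all lists (titin partners, fibre types, other cell types) were chosen with earlier results of these data known. Named were all TTN transcripts, the 5 genes nearest to each of the 3 most-read fragments, and preset partners or those 2-fold different in both bears. A preset partner is not reported here. In all, 21 alternatives were tried, on pseudocount, scaling, thresholds, transcripts used, model and single libraries.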

Additional observations from a re-analysis of the deposited data

Results flagged for a closer look

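In 3 fragments the states differed at least 2-fold in both bears and in opposite directions: contig00032 (log2 difference −1.433 in Tia and 1.735 in Star), contig00033 (−1.159 and 1.612) and contig00038 (−1.018 and 1.492). With 1 library per bear and state, the difference between the bears in these values was not tested.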

How the results depend on the processing

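The mean of both bears in the pooled level was lower in hibernation under every alternative run. Star alone was higher before scaling, by 0.19 without the 2 most-read fragments and by 0.24 as the median over fragments. Median-ratio scaling moved the log2 differences of all transcripts in Star by a median of −0.19, and these 2 values after it are not given here. The mean log2 difference of −0.57 was −0.73 with median-ratio scaling and −0.77 with upper-quartile scaling, −0.20 as the median over fragments and −0.25 without the 2 most-read fragments, and it was −0.62 without Tia and −0.51 without Star. The cause was not tested, other than that the median and the omission give the most-read fragments less or no weight. Stricter limits lowered 2 counts by construction: the 6 fragments lower in both bears were 1 at 1.2-fold (4.75% of all transcripts), and the 10 of opposite direction were 4 at 1.5-fold (0.767%). Where the bears shared the sign of the difference, 0 fragments reached 2-fold in each bear and 1 reached 1.5-fold (5.11%). Counted per bear and with either sign, 4 reached 2-fold in Tia (7.47%) and 5 in Star (2.49%). Contig00032, contig00033 and contig00038, with opposite signs in the bears, were in both of these counts. Between the bears, 0 of 17 fragments passed, 2 with median-ratio and 2 with upper-quartile scaling, and 0 to 3 with 1 library left out and no state term, where the lone library of a bear was assumed to vary like the others; the lowest adjusted p ranged from 5.47e-08 to 0.279 over these settings, and the calls over all transcripts from 0 to 96. With bear as a replicate block, 0 of the 86 partner transcripts passed (limma, lowest adjusted p = 0.236), as in every other setting of that fit. At an unadjusted p under 0.05 there were 15 in the block fit, where 13.6% of all transcripts were. Of 68 alternatives of single fragments, 63 moved by less than the spread between the bears and 5 by more, 4 of them for isotig33588. The spread between the bears was 0.0158 for isotig33588. Counting error was widest for isotig33588, and every value rests on 2 bears.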
